A study of Mus musculus with 24 samples.

Results

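The comparison described here is between 4 pools of XX (female) mouse blastocysts from obese mothers and 4 pools of XX blastocysts whose parents were both lean, 8 arrays of the 24 in the series. The 8 arrays were chosen by their labels and not by measured values: the arrays of the obese-mother XX group carry the numbers 17 to 20 and those of the lean-parent XX group the numbers 13 to 16. All animals were outbred NMRI mice. In the obese-mother group the mother had been on a fat- and calorie-rich diet (HFD) for 9 weeks from 3 weeks of age, and the father had eaten the control diet. In the lean-parent group both parents had eaten the control diet throughout. Mice were mated at 12 weeks of age, all of them on the control diet during mating, and embryos were collected on day 3.5 after mating. Each pool joined the lysates of 3 sexed embryos of 1 mother, and its RNA was amplified directly from lysate with a NuGEN kit and hybridised to 1 Affymetrix GeneChip array. The series also holds XY pools of both crosses, and XX and XY pools of lean mothers mated with obese fathers, with 4 arrays in each of its 6 groups.

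The high-fat cohort held 7 animals of both sexes and the control cohort 14. The labels do not tie a pool to its mother, so some pools of a group may share a mother, and the p-values below measure the spread between pools. With 4 arrays a group, the number of arrays limits the precision. The labels give obesity through the diet group, and body weights were not analysed here.

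At this stage the mouse embryo is a hollow ball with an outer trophectoderm, which pumps fluid into the cavity and founds the placenta, and an inner cell mass that sorts into epiblast, the source of the fetus, and primitive endoderm, the source of yolk sac endoderm. The blastocyst raises its protein synthesis and its mitochondrial respiration, so transcripts of ribosomal proteins and of the respiratory chain are among the most abundant. An obese mother supplies both the oocyte, with its mitochondria and stored RNA, and the oviduct and uterus in which the embryo grows. For that reason metabolic and mitochondrial genes of embryos are often examined in such crosses.

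The labelled tissue was checked against its markers. Trophectoderm was marked by Krt8, the keratin of this epithelium, at log2 levels of 6.25 to 7.64 in the 8 arrays. Inner cell mass was marked by Pou5f1, the pluripotency factor, at 5.32 to 7.33, and primitive endoderm by Dab2, an endocytic adaptor, at 4.05 to 5.93. These are bright members of their lists, and other lineage markers were lower. Elf5 of trophectoderm stood at 1.79 to 3.02, Sox2 of epiblast at 2.36 to 4.01 and Sox17 of primitive endoderm at 2.70 to 3.25. Of the defining markers of other cells, Ptprc, Lyz2 and Alas2 (blood), Fshr (granulosa cells), Pgr and Ltf (uterus) and Akap4 (sperm) stayed under the filter on low signal. Others passed it: Amh, Foxl2, Star and Has2 of granulosa cells, Pax8 and Foxj1 of oviduct and uterus, and Prm1, Prm2, Tnp1 and Tnp2 of sperm, with Amh at 3.77 to 4.44 and Prm1 at 3.71 to 4.45 in the 8 arrays. The lineage markers Elf5 and Sox17 lay below both of these ranges on all 8 arrays. Of the whole lists, 12 of 20 cumulus and granulosa genes, 8 of 24 blood genes, 8 of 18 uterus and oviduct genes and 9 of 16 sperm genes were tested. Their mean levels overlapped between the groups, at 2.90 to 3.10 in obese-mother and 2.94 to 3.18 in lean-parent arrays for cumulus and granulosa, 2.85 to 3.01 and 2.71 to 3.04 for blood, 2.94 to 3.22 and 2.96 to 3.14 for uterus and oviduct, and 3.18 to 3.50 and 3.05 to 3.29 for sperm. The median differences of these lists were -0.01 (cumulus and granulosa, where the difference of the means was 0.01), 0.13 (blood), 0.08 (uterus and oviduct) and 0.14 (sperm), and 8 of the 9 sperm genes were above 0. The part of such cells or of background signal in the results was not tested. The Y-linked gene Eif2s3y stood at 1.10 to 1.51 in the 8 XX arrays, against a mean of 2.12 over all XY arrays of the series, and did not pass that filter. Over the whole series its sexes overlapped, with the highest XX array at 1.67 and the lowest XY array at 1.41. Other Y-linked genes separated the sexes less, such as Kdm5d (means of 1.79 in XX and 1.72 in XY) and Sry (2.96 and 3.02). The 8 arrays correlated with each other at r = 0.871 to 0.938 over all 35556 probe sets. The median r was 0.922 within the obese-mother group, 0.923 within the lean-parent group and 0.922 between them.

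No gene passed the test. Of 13311 genes tested, limma called 0 (0% of genes) at an adjusted p under 0.05, and the smallest adjusted p was 0.999. At an unadjusted p under 0.05, 291 genes (2.19%) differed, of which 219 (1.65%) were higher and 72 (0.541%) lower in embryos of obese mothers. Levels of the groups did not overlap, with all 4 arrays above all 4 lean-parent arrays, in 252 genes (1.89%), and in the other direction in 85 genes (0.639%). With each array centred on its own median the unadjusted counts were 187 higher and 154 lower, and after quantile normalization 195 and 160, so the excess of higher genes was smaller on both scales. Values below are therefore levels and differences in these 8 pools, read against those background shares. None of them is a called change.

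The arrays themselves differed in how widely their signals spread, and this bears on everything that follows. The SD of all log2 values on an array was 1.40, 1.51, 1.30 and 1.38 on obese-mother arrays 17 to 20. It was 1.36, 1.52, 1.52 and 1.46 on lean-parent arrays 13 to 16. The groups overlapped: array 18 lay beside the widest lean-parent arrays, array 13 lay among the obese-mother arrays, and array 19 was the narrowest of the 8. The mean SD was lower by 0.0673 in the obese-mother group (exact two-sided permutation test, p = 0.314, where the smallest p that 4 against 4 arrays allow is 0.0286). In XY embryos the difference ran the other way, at 0.0544 higher for obese mothers (exact permutation p = 0.486). What sets the spread was not tested. Effects are given below without the array SD, and where stated also with it as a covariate in the limma fit. For a gene, the difference between both values is its slope on array SD times -0.0673.

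**Figure D1:**
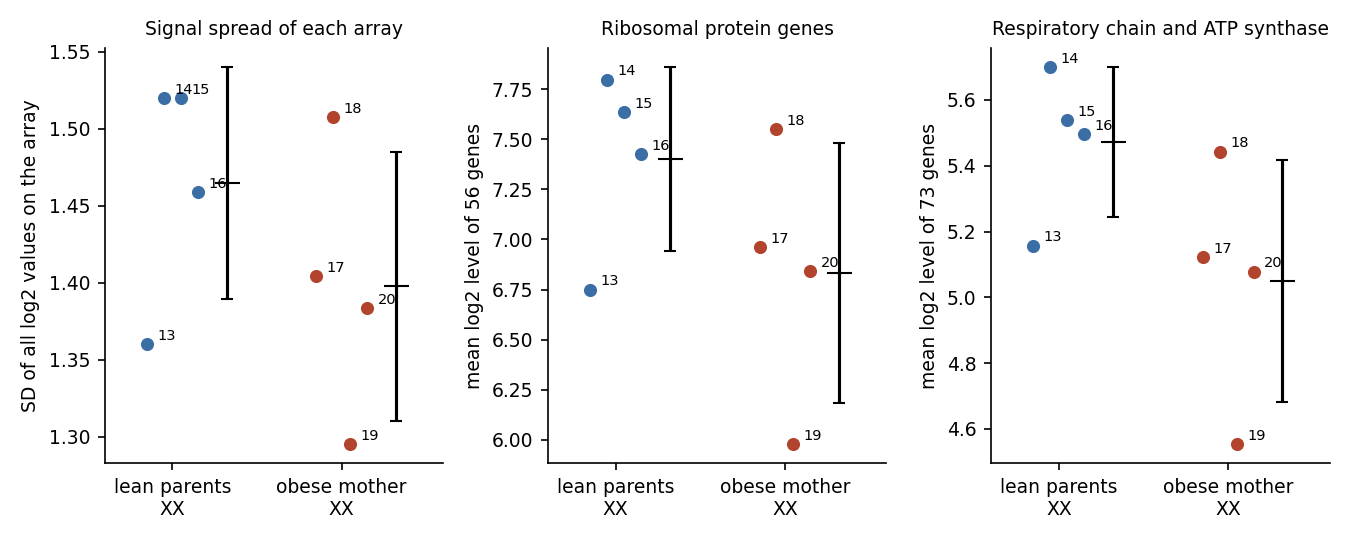
Values of each XX array by group: the SD of all log2 values on the array (left), the mean log2 level of 56 ribosomal protein genes (middle) and of 73 genes of the respiratory chain and ATP synthase (right). Points are single arrays with their label numbers, and bars give the mean and SD of 4 arrays; array 19 is the lowest in all 3 panels, and the groups overlap in each.

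Taking the array SD into account altered which genes led and in which direction the bulk leaned. Without it, 8210 genes (61.7%) were above 0 and the median difference over all genes was 0.05 on the log2 scale. With it, 7323 genes (55.0%) were above 0, the median was 0.02, and the sign turned in 2721 genes (20.4%). The covariate fit also called 0 genes (0%), with a smallest adjusted p of 0.223. At an unadjusted p under 0.05 it held 623 genes (4.68%), 383 higher (2.88%) and 240 lower (1.8%). The typical standard error was larger without the covariate, at a median of 0.183 against 0.151. A set of 264 genes was under that p in both fits with the same sign, which is 90.7% of the 291 and 42.4% of the 623.

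Large differences all pointed one way until the array SD entered the fit. Without it, 51 genes lay beyond 1 on the log2 scale, and all 51 were lower in embryos of obese mothers. With it, 22 genes lay beyond 1, 14 higher and 8 lower. Of the 51, all were still below 0 with the covariate, and 7 were at an unadjusted p under 0.05, beside 2.19% of all genes. In the XY comparison 41 of the 51 were above 0, beside 6142 of all 13311 genes. Bright probe sets made up most of the 51: 45 had a mean level above the 75th percentile of all values in the table, which is 3.38. Of all tested genes 67.5% lay under that percentile.

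Brightness of the probe set and direction of the difference were related. A probe set's signal depends on its probes as well as on the RNA, so brightness is no ranking of abundance. Genes were put in 10 equal bins by their mean level in the 16 arrays of the other groups. In the 9 dimmest bins the median difference was 0.05 to 0.06, with 62 to 66% of genes above 0. In the brightest bin (levels of 4.31 to 11.86) it was -0.07, with 42.0% above 0, and the low values sat in its upper end. Of the 5 equal parts of that bin, the brightest (5.90 to 11.86) had a median of -0.53, with 48 of its 266 genes above 0, and the next had -0.19. With the array SD as covariate those medians were -0.09 and 0.01. In XY embryos the brightest part had a median of 0.47, opposite in sign. Of its 266 genes, 47 are ribosomal protein genes and 24 belong to the respiratory chain or ATP synthase.

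**Figure D2:**
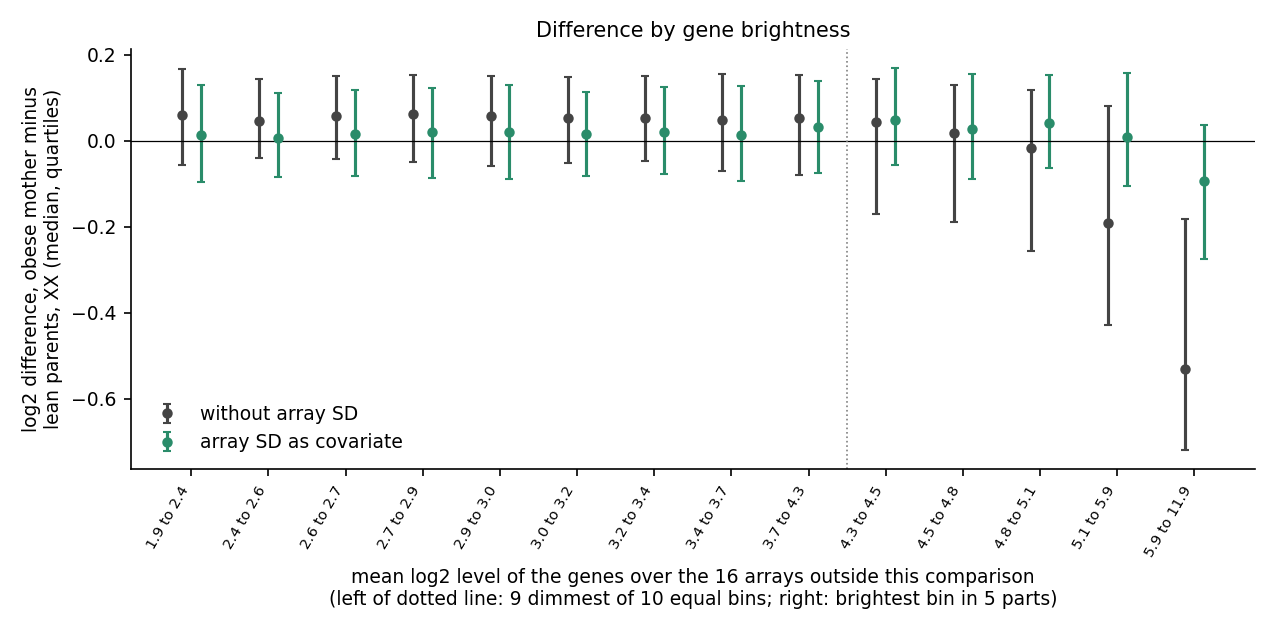
Log2 difference (obese mother minus lean parents, XX) by the genes' mean log2 level in the other 16 arrays, for the 9 dimmest of 10 equal bins and the 5 parts of the brightest. Points are medians and bars quartiles over genes; without the array SD (grey) the brightest part has a median of -0.53, and with it as covariate (green) -0.09.

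Ribosomal protein genes encode the proteins of the cytoplasmic ribosome and are transcribed in near-equal amounts in growing cells. Of 80 listed, 56 had a probe set with 1 gene symbol, and all 56 passed the filter. Their mean level was 6.96, 7.55, 5.98 and 6.84 on obese-mother arrays 17 to 20. On lean-parent arrays 13 to 16 it was 6.75, 7.80, 7.63 and 7.43. From array 19, the lowest, over 13, 20, 17, 16 and 18 to 15 and 14, the 8 arrays had the same order by this mean as by their SD, to which these genes also contribute. The median difference over the list was -0.60, with 3 of 56 members above 0, beside 0.05 and 61.7% over all genes. With the array SD it was -0.14, with 13 of 56 above 0. Large-subunit members (33 genes, median -0.56) and small-subunit members (22 genes, -0.67) were alike in this. In a bulk pool, fewer cells of a type and less of an RNA per cell cannot be told apart.

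A single array weighed heavily on these medians. Without array 19 the ribosomal median was -0.27, and without array 18 it was -0.85. With the covariate the same median lay between -0.20 (without array 20) and -0.06 (without array 19). Scaling all arrays to equal SD gave -0.38 and quantile normalization -0.28, so the sign held on each scale while the size did not. Of the 56 members only 1 was under the unadjusted p without the covariate, and 6 were with it, all lower. Over all genes 0.541% were lower at that p without the covariate and 1.8% with it.

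Rpl27a, a protein of the large subunit, was that 1 member. Its log2 level was 8.40, 9.25, 7.91 and 8.28 on obese-mother arrays 17 to 20 and 8.71, 9.51, 9.97 and 9.97 on lean-parent arrays 13 to 16. The groups overlapped, since array 18 exceeded array 13. Its difference was -1.08 (SE 0.51, limma adjusted p = 0.999), and -0.74 (SE 0.26) with the covariate. Rplp1, a stalk protein of the large subunit, stood at 6.06, 6.18, 5.46 and 6.30 against 6.12, 7.80, 7.06 and 6.96. Here array 13 alone of the lean-parent arrays lay within the obese-mother range. The difference of Rplp1 was -0.98 (SE 0.48), and -0.65 (SE 0.23) with the covariate. Rps7, a small-subunit protein, differed by -0.71 (SE 0.68) and by -0.22 (SE 0.27) with the covariate, above the unadjusted p in both fits. Gas5, a non-coding host of small nucleolar RNAs whose RNA starts with the same kind of pyrimidine-rich stretch as ribosomal protein messengers, differed by -0.78 (SE 0.70).

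Promoters of genes that led the ribosomal and respiratory groups are shown as a description of their sequence. Any part of promoter motifs in the differences was not tested. Sequences are from RefSeq (mouse build GRCm38.p6), in the direction of the gene, from 250 bases before to 50 bases after its start. Capitals mark matches, on either strand, to the ETS-factor type motif CCGGAAG, the YY1 motif AAGATGGC and the box CCAAT, so a match on the other strand appears as the reverse complement. Rpl27a lies at chr7:109518945-109519244 on the plus strand. Ndufs4, Ndufs3 and Ndufa6 lie on the minus strand at chr13:114388045-114388344, chr2:90904672-90904971 and chr15:82354242-82354541.
Rpl27a: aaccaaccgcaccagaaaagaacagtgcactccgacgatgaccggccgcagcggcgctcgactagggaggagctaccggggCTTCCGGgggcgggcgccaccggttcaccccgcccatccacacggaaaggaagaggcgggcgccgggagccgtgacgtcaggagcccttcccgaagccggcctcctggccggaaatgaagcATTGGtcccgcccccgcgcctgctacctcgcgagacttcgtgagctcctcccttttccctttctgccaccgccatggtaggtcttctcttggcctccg
Ndufs4: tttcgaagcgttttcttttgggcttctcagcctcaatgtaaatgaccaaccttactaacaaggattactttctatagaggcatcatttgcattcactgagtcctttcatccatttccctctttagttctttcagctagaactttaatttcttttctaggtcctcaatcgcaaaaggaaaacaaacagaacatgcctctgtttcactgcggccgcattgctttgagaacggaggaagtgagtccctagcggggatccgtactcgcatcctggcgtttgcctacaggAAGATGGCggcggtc
Ndufs3: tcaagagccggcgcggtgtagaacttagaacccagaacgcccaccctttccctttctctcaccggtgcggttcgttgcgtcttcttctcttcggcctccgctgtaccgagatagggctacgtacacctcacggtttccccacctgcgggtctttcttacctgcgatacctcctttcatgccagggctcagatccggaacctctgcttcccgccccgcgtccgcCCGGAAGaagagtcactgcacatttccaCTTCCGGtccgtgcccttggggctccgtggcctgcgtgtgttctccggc
Ndufa6: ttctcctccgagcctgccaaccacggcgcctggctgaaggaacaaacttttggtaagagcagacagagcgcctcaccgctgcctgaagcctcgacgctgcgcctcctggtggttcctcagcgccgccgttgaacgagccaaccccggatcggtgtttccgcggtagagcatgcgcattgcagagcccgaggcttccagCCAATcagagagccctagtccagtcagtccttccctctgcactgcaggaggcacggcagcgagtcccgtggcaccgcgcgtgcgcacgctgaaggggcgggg

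Matches are a description of letters and not of bound sites. Windows were at hand for 45 of the 56 ribosomal genes, 62 of the 73 respiratory genes and 10507 of all tested genes. The ETS-type letters occurred in 40% of ribosomal and 25.8% of respiratory windows, against 14.4% of all windows. YY1 letters occurred in 6.67%, 14.5% and 3.97%. CCAAT, a general promoter box, was about as common in each, at 31.1%, 41.9% and 37.6%. Of the printed windows, Rpl27a and Ndufs3 hold the ETS-type letters and Ndufs4 holds those of YY1 just after its start.

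The respiratory chain passes electrons from nutrients to oxygen through complexes I to IV, and ATP synthase uses the resulting proton gradient. Of 77 listed nuclear genes, 73 were tested. Their mean level was 5.12, 5.44, 4.55 and 5.08 on obese-mother arrays and 5.16, 5.70, 5.54 and 5.50 on lean-parent arrays. Array 19 was lowest and array 18 lay among the lean-parent values. The median difference was -0.41, with 13 of 73 above 0, and -0.12 with the array SD, with 23 of 73 above 0. Leaving out 1 array moved it between -0.53 (without array 18) and -0.26 (without array 19). With the covariate the range was -0.18 (without array 20) to -0.08 (without array 13).

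Complexes differed in their medians. Complex IV, which reduces oxygen, had the lowest at -0.72, with 0 of 10 genes above 0. ATP synthase had -0.55 (14 genes), complex I -0.33 (35 genes), complex III with cytochrome c -0.32 (10 genes), and complex II, which is also an enzyme of the citrate cycle, -0.08 (4 genes). With the covariate these were -0.26, -0.16, -0.10, -0.05 and -0.05. Of the 73 genes, 1 was higher and 4 were lower at the unadjusted p without the covariate, beside 1.65% and 0.541% of all genes. With the covariate 3 were higher and 9 lower, beside 2.88% and 1.8% of all genes. All 5 genes under that p without the covariate belong to complex I.

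Ndufs4, an accessory subunit near the NADH-oxidising arm of complex I whose loss causes Leigh-like disease in mice, had the largest difference of these 5. It stood at 4.17, 4.12, 2.85 and 3.25 on obese-mother arrays and at 5.35, 5.69, 4.99 and 4.25 on lean-parent arrays. The groups did not overlap, though arrays 16 and 17 nearly met. Its difference was -1.47 (SE 0.68, limma adjusted p = 0.999) and -1.05 (SE 0.42) with the covariate. Ndufs3, a core subunit of complex I, stood at 4.49, 4.83, 3.87 and 4.50 against 4.92, 5.85, 5.32 and 5.03, again without overlap. The difference of Ndufs3 was -0.86 (SE 0.39), and -0.59 (SE 0.20) with the covariate. Ndufa6, an accessory subunit, differed by -0.94 (SE 0.41) and Ndufc1, another, by -0.71 (SE 0.33). Ndufa3 was the 1 higher member, at 5.06, 4.83, 4.92 and 4.89 against 4.86, 4.33, 4.39 and 4.73, a difference of 0.35 (SE 0.16) that was the same with the covariate. Only array 13 overlapped the obese-mother arrays for it. Ndufa9, an accessory subunit, went from 0.50 (SE 0.62) to 0.96 (SE 0.23, limma adjusted p = 0.703) when the array SD entered the fit. So members of 1 complex lay on both sides of 0.

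**Figure D3:**
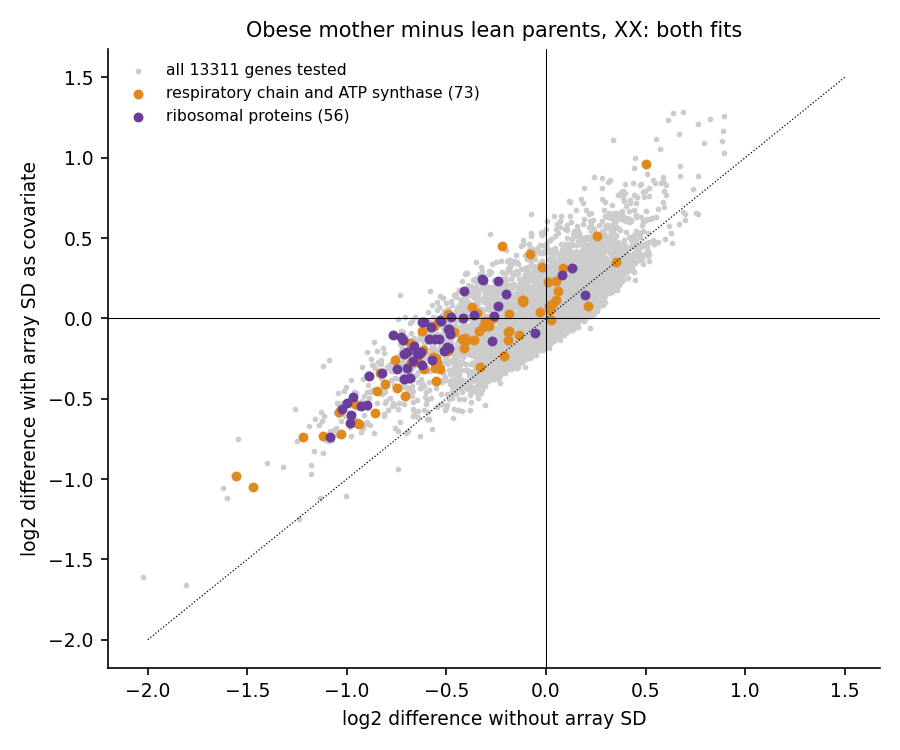
Log2 difference (obese mother minus lean parents, XX) of every tested gene without the array SD (horizontal) and with it as covariate (vertical), with ribosomal protein genes in purple and respiratory chain and ATP synthase genes in orange. Most members of both groups lie left of 0 and above the dotted line of equal values, so their differences were smaller in size with the covariate (medians -0.60 and -0.14 for 56 ribosomal genes, -0.41 and -0.12 for 73 respiratory genes).

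Other bright housekeeping groups were below 0 without the covariate and near or above 0 with it. Proteasome genes, whose products degrade ubiquitin-tagged proteins, had a median of -0.30 (4 of 33 above 0) and 0.13 (22 of 33) with the covariate. Within them the catalytic core had -0.51 and then -0.02, and the regulatory particle that unfolds substrates -0.12 and then 0.20. Heat shock proteins and the CCT chaperonin, which folds actin and tubulin, had -0.36 (3 of 23 above 0) and then 0.02. Translation initiation and elongation factors had -0.19 (6 of 39) and then 0.16 (29 of 39). Splicing factors had -0.20 (13 of 37) and then 0.03 (22 of 37). The medians of these groups thus lay on different sides of 0 in the fits, or at 0, whereas those of ribosomal and respiratory genes were below 0 in both. That was not particular to them. The 6 tested snoRNA host genes had -0.66 and then -0.20. The brightest part of all genes, with 47 ribosomal and 24 respiratory members, had -0.53 and then -0.09. With the covariate 31.6% of that part lay above 0, beside 31.5% of respiratory and 23.2% of ribosomal genes.

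Leaving out array 19 brought the proteasome median to -0.00, the translation-factor median to 0.02 and the splicing median to -0.02. Leaving out array 18 brought them to -0.62, -0.41 and -0.39. Those 2 arrays were also the extremes of a single member. Psmc6, an ATPase of the regulatory particle, stood at 3.39, 5.37, 2.17 and 3.02 against 3.62, 4.44, 5.22 and 4.19, so arrays 18 and 19 were its highest and lowest of all 8. Ribosome biogenesis genes, which assemble ribosomes in the nucleolus, had a median of -0.03 (23 of 48 above 0) and of 0.13 with the covariate (37 of 48). Ddx21, a nucleolar helicase, was among their higher members, at 3.30, 3.88, 3.37 and 3.16 against 2.98, 2.94, 2.86 and 2.68. Its groups did not overlap, and the difference was 0.56 (SE 0.29), or 0.68 with the covariate. Wdr12, which acts in large-subunit maturation, was lower by contrast, at -0.58 (SE 0.25). Ribosomal proteins of the mitochondrion, a family added after the values were seen, had a median of 0.03 (41 of 73 above 0), and 0.14 (53 of 73) with the covariate. This family was dimmer than the ribosomal proteins of the cytoplasm, at a mean level of 3.94 against 7.15. The brightness bin of 3.75 to 4.31 had a median of 0.05 over all its genes without the covariate.

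**Figure D4:**
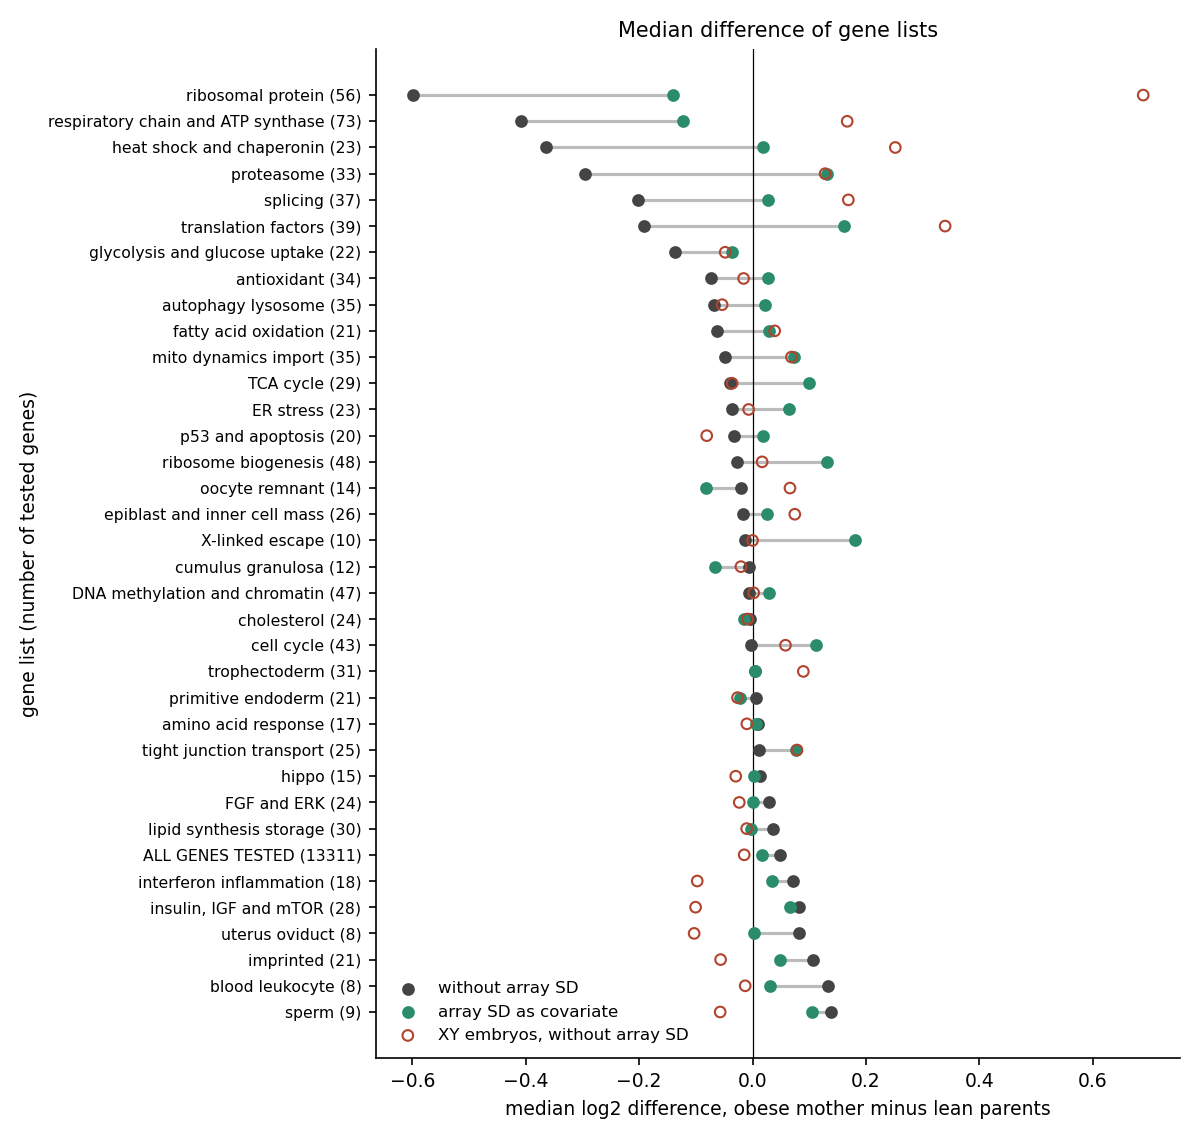
Median log2 difference, obese mother minus lean parents, for each gene list with at least 8 tested genes (number in brackets): XX without the array SD (grey), XX with it as covariate (green) and XY without it (open red). Ribosomal proteins have -0.60, -0.14 and 0.69. Lineage lists and many lists of metabolism and stress lie near the value of all 13311 genes (0.05 in XX without the array SD). In the same fit the respiratory chain with ATP synthase has -0.41, heat shock and chaperonin genes -0.36, and glycolysis and glucose uptake -0.14.

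Genes of fuel use and of stress gave small medians on either side of 0. Fatty acid oxidation, the mitochondrial breakdown of fat, had a median of -0.06 (6 of 21 above 0), and 0.03 with the covariate. Within it Slc25a20, the carnitine-acylcarnitine carrier that brings fatty acids into mitochondria, was under the unadjusted p. It stood at 3.01, 2.82, 3.18 and 2.91 on obese-mother arrays and at 2.56, 2.55, 2.85 and 2.24 on lean-parent arrays. Array 15 reached into the obese-mother range, and the difference was 0.43 (SE 0.16, limma adjusted p = 0.999), or 0.49 with the covariate. Acaa2, the thiolase of the last step, lay on the other side at -0.50 (SE 0.25). Lipid synthesis and storage genes had a median of 0.04 (18 of 30 above 0) and cholesterol genes -0.00 (11 of 24). Among the latter Scarb1, the receptor for high-density lipoprotein, was lower at 1.75, 2.31, 2.26 and 2.11 against 2.49, 2.33, 2.64 and 2.63. Its groups did not overlap, though arrays 18 and 14 nearly met, and the difference was -0.42 (SE 0.17), all at low signal.

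Glycolysis and glucose transport had a median of -0.14 (7 of 22 above 0), the citrate cycle -0.04 (13 of 29), and insulin, IGF and mTOR signalling 0.08 (19 of 28). With the covariate these were -0.04 (10 of 22), 0.10 (19 of 29) and 0.07 (21 of 28). Slc2a8, a glucose transporter of the blastocyst, stood at 4.19, 4.12, 4.05 and 4.45 against 3.85, 3.95, 3.90 and 3.86, without overlap, a difference of 0.31 (SE 0.15). Citrate cycle enzymes went in both directions. Sucla2, a subunit of succinyl-CoA synthetase, stood at 3.90, 3.87, 3.11 and 3.37 against 4.66, 4.40, 4.83 and 4.59, also without overlap. Its difference was -1.06 (SE 0.65) and -0.59 (SE 0.28) with the covariate. Idh2, the mitochondrial NADP-dependent isocitrate dehydrogenase, was at 0.35 (SE 0.17). Mitochondrial import and dynamics genes had a median of -0.05 (12 of 35), and 0.07 (25 of 35) with the covariate. Their 1 member under the unadjusted p without the covariate was Nrf1, a transcription factor of nuclear genes for mitochondria. It stood at 2.51, 2.55, 2.76 and 2.69 against 2.46, 2.20, 2.30 and 2.12. The groups did not overlap and the difference was 0.36 (SE 0.15), again at low signal.

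Stress lists held few members under the unadjusted p. Antioxidant genes had a median of -0.07 (13 of 34 above 0), ER stress genes -0.04 (7 of 23), p53 and apoptosis genes -0.03 (9 of 20), and amino acid response genes 0.01 (9 of 17), with 0 members under it in each without the covariate. With the covariate these medians were 0.03 (19 of 34), 0.06 (15 of 23), 0.02 (11 of 20) and 0.01 (9 of 17). Cat, the catalase that removes hydrogen peroxide, stood at 4.13, 4.16, 4.31 and 4.22 against 4.11, 3.86, 3.93 and 3.91, a non-overlapping difference of 0.26 (SE 0.13). In the list of autophagy and lysosome genes 15 of 35 were above 0 (median -0.07), with 1 member under it, Map1lc3a, described below. Interferon and inflammation genes had 0.07 (11 of 18). With the covariate the autophagy and lysosome list had 0.02 (20 of 35) and the interferon and inflammation list 0.03 (10 of 18).

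Lineage genes had medians near 0. Trophectoderm genes had a median of 0.00 (16 of 31 above 0), tight junction and ion transport genes 0.01 (14 of 25), epiblast and inner cell mass genes -0.02 (13 of 26), and primitive endoderm genes 0.01 (11 of 21), beside 0.05 and 61.7% above 0 over all genes. With the covariate the medians of these 4 lists were 0.00 (17 of 31), 0.08 (17 of 25), 0.03 (14 of 26) and -0.02 (9 of 21), beside 0.02 and 55.0% over all genes. No member of these 4 lists was under the unadjusted p without the covariate. Cdx2, the factor that sets trophectoderm fate, stood at 4.14, 4.52, 4.12 and 4.32 on obese-mother arrays and at 4.34, 5.20, 4.67 and 4.89 on lean-parent arrays. The groups overlapped only through arrays 18 and 13, and the difference of -0.50 (SE 0.41) was -0.23 (SE 0.23) with the covariate. Eomes, which acts with Cdx2 in trophoblast, was at 0.36 (SE 0.25), and Gata3, a further trophectoderm factor, at 0.00 (SE 0.14). Nanog, a factor of the epiblast, was at 4.37, 4.55, 4.67 and 4.72 against 4.57, 4.70, 4.60 and 4.61, a difference of -0.04 (SE 0.26). Gata6, the early primitive endoderm factor, stood at 3.77, 3.59, 3.76 and 3.58 against 3.80, 3.80, 4.08 and 3.94. Its groups were only narrowly apart, and its difference was -0.23 (SE 0.24) and -0.09 with the covariate. With the covariate 2.88% of all genes were higher at an unadjusted p under 0.05, and so were 2 trophectoderm genes and 1 primitive endoderm gene. Krt8 was 1 of them, at 0.24 (SE 0.53) without and 0.61 (SE 0.25) with it.

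Chromatin, imprinted and X-linked lists had medians on both sides of that of all genes (0.05). Genes of DNA methylation and chromatin had a median of -0.01 (23 of 47 above 0), and 0.03 (31 of 47) with the covariate. Smarca4, the ATPase of the BAF remodelling complex, was their 1 member under the unadjusted p, at 4.00, 3.23, 3.53 and 3.61 against 3.44, 2.98, 3.16 and 3.07. Arrays 13 and 18 crossed between the groups, and the difference was 0.43 (SE 0.17). Imprinted genes, expressed from 1 parental copy in some tissues, had a median of 0.11 (16 of 21 above 0) and 0.05 (13 of 21) with the covariate, beside 61.7% and 55.0% above 0 over all genes. Gab1, an adaptor of receptor tyrosine kinases that is imprinted in placenta, was at 0.43 (SE 0.17). The 366 tested genes of the X chromosome had a median of 0.04, beside 0.05 for 12893 autosomal genes. Genes that escape X inactivation had a median of -0.01 (5 of 10 above 0) and 0.18 (8 of 10) with the covariate. Germline and homeobox genes of the X chromosome had 0.22 (4 of 5 tested, of 25 listed), and 0.12 with the covariate. Of the Y-linked list 1 of 10 genes was tested, Sry, whose values are given below. Xist, the RNA that silences 1 X chromosome in female cells, stood at 3.19, 3.22, 2.05 and 3.01 against 2.19, 3.47, 3.54 and 2.49. Its low values fell in both groups, and the difference was -0.06 (SE 0.28). On arrays 19 and 13 it lay near the XY means, 1.97 (SD 0.18) for obese mothers and 2.07 (SD 0.20) for lean parents. Cell cycle genes had a median of -0.00 (21 of 43), and 0.11 (31 of 43) with the covariate. Among them Ccnd3, a D-type cyclin, was at -0.39 (SE 0.16) without it.

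The genes with the smallest p were mostly dim and moved little between fits. Of the 10 higher and 10 lower genes by that rule, 17 lay under the table's 75th percentile, beside 67.5% of all tested genes. The groups did not overlap in 17, beside 1.89% of all genes higher and 0.639% lower. All 20 were under the unadjusted p with the covariate in the same direction. Picking genes by a small p in these same arrays favours both, so these counts are no support for the genes. Cd2, an adhesion receptor of T cells, had the smallest p of the higher ones. It stood at 3.01, 2.94, 2.79 and 2.80 on obese-mother arrays and at 2.33, 2.36, 2.39 and 2.30 on lean-parent arrays, so the groups were well apart and each was tight. Its difference was 0.54 (SE 0.13, limma adjusted p = 0.999), and 0.49 (adjusted p = 0.387) with the covariate. The leukocyte marker Ptprc did not pass the filter on low signal in these arrays. Of the 8 tested genes of the blood list 5 were above 0, and their mean level was 2.85 to 3.01 in the obese-mother arrays and 2.71 to 3.04 in the lean-parent arrays. The part of blood cells in the Cd2 value was not tested.

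Gdap2, a cytoplasmic protein with a macro domain, stood at 3.46, 4.24, 3.27 and 3.12 against 2.58, 2.85, 2.89 and 2.71. Its groups did not overlap, with array 18 the highest. The difference was 0.76 (SE 0.24), and 0.89 (SE 0.19, limma adjusted p = 0.387) with the covariate. Pramel19, of the PRAME-like family that is active in germ cells and early embryos, stood at 2.89, 2.06, 2.22 and 3.06 against 2.02, 1.93, 1.70 and 1.84. All lean-parent arrays were below all obese-mother arrays, by 0.69 (SE 0.21) on average. In XY embryos the same gene was at -0.57. Zfp182, a zinc finger gene of the X chromosome, was at 0.70 (SE 0.22) and Rdh9, a retinol dehydrogenase family member, at 0.76 (SE 0.24). The remaining 5 by this rule, Rhpn1, Cfap45, Duoxa1, Fa2h and Ankle2, were at 0.44 to 0.49. Myef2, an RNA-binding repressor of myelin genes, had the largest difference at an unadjusted p under 0.05 on the higher side, 0.90 (SE 0.43), with Frmd6 at 0.75 and Crygd at 0.74.

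Vps51, a subunit of the tethering complexes GARP and EARP of endosome traffic, had the smallest p of the lower genes. It stood at 2.52, 2.61, 2.50 and 2.38 on obese-mother arrays and at 3.03, 3.07, 2.90 and 2.82 on lean-parent arrays. The groups did not overlap, and the difference was -0.45 (SE 0.11, limma adjusted p = 0.999), or -0.47 (adjusted p = 0.387) with the covariate. Map1lc3a, an LC3 protein that is joined to lipid on autophagosome membranes, stood at 2.53, 2.68, 2.67 and 2.14 against 3.02, 3.13, 3.40 and 3.43. These groups too were apart, by -0.74 (SE 0.19, limma adjusted p = 0.999), and -0.70 with the covariate. Ccdc97, a coiled-coil protein, stood at 2.23, 2.30, 2.70 and 2.16 against 3.14, 2.91, 2.94 and 2.94. Its difference was -0.63 (SE 0.18), and with the covariate -0.73 (SE 0.13, limma adjusted p = 0.223), the smallest adjusted p of that fit, shared with Sectm1a at -0.69.

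The 5S ribosomal RNA gene n-R5s136 was the brightest of the 20, at 7.40, 7.56, 7.25 and 7.34 against 7.78, 7.87, 8.02 and 8.25. Its groups did not overlap, at -0.59 (SE 0.17), but 5S genes are near-identical copies, so the signal cannot be given to 1 of them. H2-K2, a class I histocompatibility gene with close relatives, was at -0.49 (SE 0.15) with the same limit. Tomm6, a small subunit of the mitochondrial import pore, was at -0.74 (SE 0.24) and Bola3, which helps place iron-sulfur clusters in mitochondrial enzymes, at -0.60 (SE 0.19). Gna11, Rtel1 and Ncoa3 were at -0.64, -0.53 and -0.47. Lower genes with the largest differences at an unadjusted p under 0.05 were brighter. Zcrb1, a protein of the minor spliceosome, led them at 6.22, 6.81, 4.50 and 5.74 against 6.71, 7.80, 7.12 and 8.04. Arrays 18 and 13 overlapped narrowly, and the difference was -1.60 (SE 0.69), or -1.12 (SE 0.32) with the covariate. After Zcrb1 and Ndufs4 came Krtcap2 at -1.18, Tubb2a, a beta tubulin, at -1.12, and Cstb, a cysteine protease inhibitor, at -1.10.

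**Figure D5:**
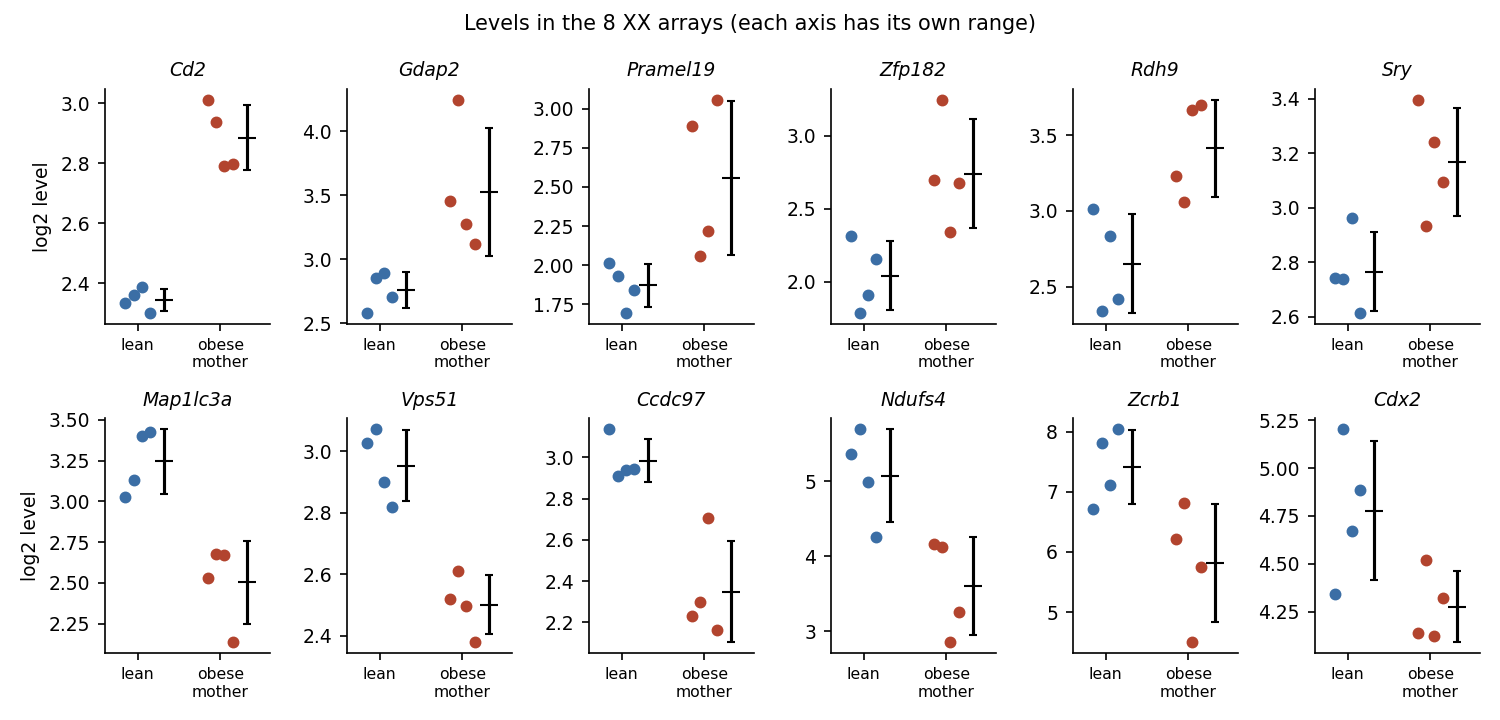
Log2 levels of 12 genes in the lean-parent (blue) and obese-mother (red) XX arrays, with mean and SD of 4 arrays beside the points. Each panel has its own axis; Cd2, Map1lc3a and Vps51 have groups that lie apart, and Sry, absent from the XX genome, and Cdx2 are shown for scale.

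At low signal, a probe set of a gene that XX embryos lack also differed. Sry, which lies on the Y chromosome and is absent from XX embryos, stood at 3.40, 2.93, 3.24 and 3.09 on obese-mother arrays and at 2.74, 2.74, 2.96 and 2.61 on lean-parent arrays. Those values overlapped only through arrays 18 and 15, and the difference was 0.40 (SE 0.18, limma adjusted p = 0.999). The other Y-linked probe sets stayed under the filter, and their differences ran from -0.30 (Kdm5d) to 0.23 (Zfy2). Olfactory and vomeronasal receptor genes, a family added after the values were seen and known for their expression in sensory neurons, had 292 tested members with mean levels of 2.06 to 5.04. Their median difference was 0.07, with 197 above 0, beside 0.05 and 61.7% over all genes, and -0.01 with the covariate. Of these genes 7 were higher and 0 lower at an unadjusted p under 0.05 by limma, that is 2.40% higher, beside 1.65% of all genes. Among the 219 higher genes, 176 (80.4%) lay under the 75th percentile of the table, beside 67.5% of all tested genes and 43 (59.7%) of the 72 lower genes. The part of background signal in the higher genes was not tested.

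Some genes had small p-values with the covariate and not, or less so, without it. Lyar, a nucleolar protein of ribosome production, went from 0.54 (SE 0.46) to 0.86 (SE 0.19, limma adjusted p = 0.387). It stood at 4.16, 5.03, 3.24 and 3.70 against 2.72, 3.77, 3.84 and 3.65, so that arrays 13 and 19, both narrow in signal, had its lowest values. Lsm7, of the ring that binds decaying messenger RNA and U6 RNA, went from 0.64 (SE 0.86) to 1.28 (SE 0.29, adjusted p = 0.387). Its array 18 stood at 6.57 and the other 7 arrays at 3.27 to 4.38, so array 18 alone lay far above the rest. On the lower side the difference of Dazap2, a small adaptor protein, was smaller with the covariate, as was its error, at -0.54 (SE 0.14) after -0.77 (SE 0.32). It stood at 4.42, 4.73, 4.31 and 4.31 against 5.09, 5.53, 5.23 and 5.03. Its groups did not overlap.

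Set beside XY embryos of the same crosses, which share no array with the XX groups, the XX effects were of another sign in several groups. Ribosomal protein genes had a median of -0.60 in XX and 0.69 in XY, where 54 of 56 were above 0. Their mean level was 5.73, 7.20, 7.72 and 5.32 on lean-parent XY arrays 1 to 4. On obese-mother XY arrays 5 to 8 it was 6.25, 7.88, 6.68 and 7.70, so the groups overlapped. The low arrays 1 and 4 also had the lowest SDs of these XY arrays, 1.29 and 1.27. How far the XY median rests on arrays 1 and 4 was not tested. With the array SD the ribosomal medians were -0.14 in XX and 0.37 in XY. Respiratory genes had -0.41 in XX and 0.17 in XY, where 55 of 73 were above 0. With the array SD these were -0.12 and 0.05, with 40 of 73 above 0 in XY. Over all 13311 genes, 6142 were above 0 in XY without the array SD and 6908 with it. The array SD differed in opposite directions in XX and XY, and its part in this contrast of sexes was tested only as the covariate. No gene was called for the difference between the XX and the XY effect by limma (0 of 13311, 0%), without or with the array SD as covariate. With the array SD as covariate the smallest limma adjusted p was 0.0816. With the first residual principal component as covariate instead, 9 genes were called. Without a covariate, 344 genes (2.58%) differed at an unadjusted p under 0.05, 235 with the XX effect higher (1.77%) and 109 with it lower (0.819%). Of the 56 ribosomal genes 6 were among the 109, and of the 73 respiratory genes 9. With the array SD as covariate 741 genes (5.57%) differed, split into 431 (3.24%) and 310 (2.33%), with 14 ribosomal and 12 respiratory genes among the 310.

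Leading genes of the XX comparison mostly had small XY values. Picking them by a small p in XX favours this, so it does not show that their effect is particular to XX. Cd2 was at 0.03 in XY, Gdap2 at -0.00, Vps51 at -0.07 and Map1lc3a at 0.10. Rdh9, at 0.42, kept the direction it had in XX, and Dazap2, at 0.77, had the opposite one. XX embryos of obese fathers were compared with the same 4 lean-parent arrays, so their values are only set side by side. Cd2 was at 0.44 there, Gdap2 at 0.33, Vps51 at -0.10, Map1lc3a at -0.27, Rpl27a at -0.75 and Ndufs4 at -0.97. The ribosomal median of that comparison was -0.22 and the respiratory median -0.07. Any feature of lean-parent arrays 13 to 16 enters both crosses alike.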

How the data were processed

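Gene expression of 24 blastocyst pools was measured with 1 array per pool, and 8 of them form this comparison. Values are deposited as log2 signal intensity for each probe set. The authors used RMA, which corrects background, normalizes between arrays and summarises the probes of a set, with the package affy (named in the submitters' processing notes, without a version). RMA brings the arrays' probe distributions together, yet the SD of the deposited values still differed between arrays.

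Of 35556 probe sets, 21789 had 1 gene symbol in the platform annotation, 1621 several and 12146 none, and the latter were left out. The set with the highest mean stood for a gene, which mattered for 999 of 19938 genes. Symbols matched RefSeq for 21698 sets. Genes above the table median (2.56) on at least 4 of 24 arrays were kept, which left 13311.

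Group means over all 6 groups were fitted with limma 3.58.1 in R 4.3.3, on 24 arrays so that groups share 1 estimate of the spread, with Benjamini-Hochberg adjustment over all genes tested. A second fit added the array SD as covariate. Single values per array were compared with exact two-sided permutation tests. Scripts were tested on simulated data. The 8 arrays were taken by their labels, but this comparison, its members and the 39 gene lists were chosen with earlier results of these data known. No p-value was computed for a list. Genes were named by rule: the 10 smallest p in each direction, the 5 smallest with the covariate, the 5 largest differences at an unadjusted p under 0.05, up to 3 members with the smallest p of each list, and lineage and sex markers. Gene models and clone names were passed over. Ndufc1 and Ndufa3 were named for a count after their values were seen.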

Additional observations from a re-analysis of the deposited data

Results flagged for a closer look

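Over the named genes and the array-wide summaries, 212 groups of 4 arrays were checked for 1 array far from the other 3 (Dixon's criterion), and 5 were found, where chance flags about 1 group in 20. Pou5f1 stood at 7.33 on obese-mother array 18, with the nearest other array of the group at 5.65. Atp1b3, the beta subunit of the sodium pump, stood at 1.94 on obese-mother array 19, with the nearest at 2.28. In the lean-parent group, Duoxa1 stood at 2.72 on array 15, Ccdc97 at 3.14 on array 13 and Ncoa3 at 3.73 on array 14, with nearest values of 2.28, 2.95 and 3.43. Arrays 18 and 19 are also the widest and the narrowest of the obese-mother arrays by signal SD.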

How the results depend on the processing

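The counts of called genes, 0 without and 0 with the array SD, held under all 22 alternatives run for each. The array SD difference stayed below 0 in the 10 alternatives run; leaving out 1 array gave -0.104 (without array 18) to -0.0331 (without array 19), with exact permutation p from 0.114 to 0.6. Counts at an unadjusted p under 0.05 depended on the processing; the cause was not tested beyond each setting's own construction. Against 219 higher and 72 lower genes, the array SD as covariate gave 383 and 240, no filter 380 and 122, a filter at the 75th percentile 67 and 35, the 8 arrays alone 329 and 217, array weights 726 and 293, the first residual principal component as covariate 635 and 371, and a p under 0.01 20 and 15. Centring arrays gave 154 lower and quantile normalization 160. Leaving out 1 array gave 118 (without array 19) to 365 (without array 18) higher, with 363 without array 13, 133 without array 14 and 135 without array 15, and 63 (without array 17) to 130 (without array 13) lower. Against 383 higher and 240 lower genes with the array SD, a stricter filter gave 184 and 99, a p under 0.01 80 and 51, and leaving the SD out 219 and 72; no filter, and the principal component added to the SD, each gave 392 lower; leaving out 1 array gave 278 to 506 higher and 211 to 288 lower. For the difference between XX and XY, the principal component as covariate gave 9 called genes in place of 0. No paired analysis was possible because the groups share no replicate numbers.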
